A study of Homo sapiens with 6 samples.

Results

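The G2/M and mitosis genes described here are 49 genes taken by symbol, from cyclins and CDK1 to kinetochore, spindle and cytokinesis factors. Each of the 49 symbols matched 1 row of the count table, which lists 60662 genes. After the filter on low counts 48 of the 49 were tested, together with 14425 genes in all, and NUSAP1 was the member that did not pass. Transcripts were sequenced from stranded mRNA libraries of TC-71, an established Ewing sarcoma cell line grown in serum-containing medium without treatment. The libraries formed 2 groups, 3 labelled wildtype and 3 labelled XG knockout, and the comparison asked how the transcriptome differs when XG, a gene for a cell-surface blood group glycoprotein, is knocked out. The labels name no other allele or agent, and they do not say how the knockout was made, whether its cells were a clone or a pool, or whether replicates came from separate cultures. The p-values therefore reflect the spread among libraries alone, a spread that may be technical, and differences between clones cannot be told apart from those of the knockout.

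Total counts ranged from 22557187 to 31214099 per library, and log2 fold changes had a median standard error (SE) of 0.0336 over the tested members, against 0.0636 over all genes. XG stood at 45.4, 47.1 and 44.4 CPM (counts scaled to the library's normalised total) in wildtype replicates 1 to 3. In knockout replicates 1 to 3 it was at 30.0, 30.0 and 28.9 CPM, so that all knockout libraries were lower while transcript remained (log2 fold change -0.63, SE 0.0478). The 8 Ewing sarcoma markers checked (CD99, NKX2-2, NR0B1, STEAP1, LIPI, PRKCB, FLI1 and CCND1) were above 1 CPM in every library. They summed to 2691 to 2745 CPM in wildtype and 2619 to 2636 CPM in knockout libraries, without overlap. Of these markers only CD99 was called, lower in knockout (log2 fold change -0.12, edgeR adjusted p = 0.0302). After a correction for transcript GC content CD99 was not called (-0.068, edgeR adjusted p = 0.142). Markers of leukocytes, epithelium and endothelium summed to at most 0.362 CPM in any library, with CD3E and VWF at 0, and 3 fibroblast markers summed to 10.9 to 12.1 CPM in wildtype and 11.2 to 11.7 CPM in knockout libraries. Knockout replicate 3 stood apart from the other knockout libraries in 1 respect that touches these genes. Across all genes with a transcript GC content over 55%, the median difference from the gene's own mean over 6 libraries was -0.081 and -0.068 (log2) in knockout replicates 1 and 2, and 0.046 in knockout replicate 3, where the wildtype libraries stood at 0.034, 0.047 and 0.035. The total of members that passed the test is therefore given with and without that library, while counts by role group use all 6 libraries.

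Entry into mitosis is driven by CDK1 bound to cyclin A or B, whose inhibitory phosphates are removed by CDC25 phosphatases. Aurora and Polo-like kinases then build the spindle, and the spindle checkpoint holds back the anaphase-promoting complex (APC/C) and its activator CDC20 until chromosomes are attached, after which securin and cyclin B are degraded and cytokinesis follows. Most of these genes are transcribed late in the cell cycle from promoters read by the MuvB complex, which works with B-MYB and FOXM1 in cycling cells and with p130 and E2F4 as the repressor DREAM in arrested cells. The CHR element (TTTGAA or TTCGAA) binds MuvB, and CCAAT boxes bind NF-Y. Their summed transcripts are commonly read as a measure of how many cells are dividing.

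Those promoter letters were common in the members. RefSeq promoter windows (GRCh38.p14, 250 bases before to 50 bases after each start) were found for 41 of the 49 members, in 53 windows. The letters TTTGAA or TTCGAA, on either strand, occurred in 36 of 53 member windows (67.9%), against 16.4% of 35116 windows of all genes and 11.8% of 15255 windows of genes with a tested symbol. CCAAT, on either strand, occurred in 38 member windows (71.7%), against 34.6% of all windows, and at 2 or more places in 22 of them (41.5% against 10.8%). Windows with both kinds of motif made up 54.7% of member windows and 6.38% of all windows. CDC20, CKS2 and KIF11 are printed to show this arrangement in a member that fell, a member at 99.8% of wildtype and a kinesin whose estimate was positive, and they were chosen after their values were seen, among members whose RefSeq start is also the start of the gene in the count table. Each is given 5′ to 3′ as the 250 bases before the start, with TTTGAA and CCAAT in capitals, or their reverse complements TTCAAA and ATTGG.
CDC20, chr1:43358731-43358980, plus strand: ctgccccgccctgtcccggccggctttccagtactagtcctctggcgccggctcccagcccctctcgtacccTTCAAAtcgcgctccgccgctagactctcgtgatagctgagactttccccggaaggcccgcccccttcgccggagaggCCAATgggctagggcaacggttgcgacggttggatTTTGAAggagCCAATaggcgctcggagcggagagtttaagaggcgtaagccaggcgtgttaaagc
CKS2, chr9:89310945-89311194, plus strand: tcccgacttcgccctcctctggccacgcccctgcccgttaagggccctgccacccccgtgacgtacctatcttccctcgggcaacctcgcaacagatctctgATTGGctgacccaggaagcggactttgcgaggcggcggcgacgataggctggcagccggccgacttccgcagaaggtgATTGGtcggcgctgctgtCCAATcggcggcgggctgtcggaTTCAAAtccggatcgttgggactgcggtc
KIF11, chr10:92592880-92593129, plus strand: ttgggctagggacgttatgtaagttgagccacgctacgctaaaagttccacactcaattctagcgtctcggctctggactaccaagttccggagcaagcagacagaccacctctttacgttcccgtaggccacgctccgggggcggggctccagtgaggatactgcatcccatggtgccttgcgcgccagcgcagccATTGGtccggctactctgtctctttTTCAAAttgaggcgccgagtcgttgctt
In CKS2 and KIF11 the CHR letters began 29 and 28 bases before the start, on the opposite strand, with CCAAT letters at 52 and 53 bases. In CDC20 they lay 65 bases before the start with CCAAT letters at 100 and 55 bases, and a further match lay at 178 bases. CHR letters were found for 21 of 25 members with a positive and 11 of 15 with a negative log2 fold change, and CCAAT letters for 18 of 25 and 14 of 15. A match is a description of the letters and does not show that a factor is bound.

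The mitotic genes were at nearly the same level with and without XG knockout. CDC20 was the member that passed the test, lower in knockout cells, so that 1 of 48 members (2.08%) was called where 1.36% of all genes tested were called, 0.915% lower and 0.444% higher (quasi-likelihood test in edgeR, p adjusted by Benjamini-Hochberg, threshold 0.05). No member was called higher by edgeR, DESeq2 or limma voom, and 7 members were higher and 2 lower at an unadjusted edgeR p under 0.05, which is 18.8% of members against 16.8% of all genes. The median log2 fold change of the members was 0.016, with 19 of 48 negative, against a median of 0.0019 and 49.1% negative over all genes tested. The groups of 3 libraries did not overlap in 12 members (25.0%), 7 higher and 5 lower, where they did not overlap in 20.5% of all genes, 10.7% higher and 9.8% lower. For 47 of 48 members the 95% interval of the fold change lay within 1.2-fold in either direction, and PRC1 was the exception. In RNA from a whole culture, a change in the number of dividing cells and a change in transcript per dividing cell cannot be told apart. Intervals within 1.2-fold were found for 58.6% of all genes tested, whose log2 fold changes had a median SE of 0.0636, against 0.0336 for the members. Leaving out PRC1, the bounds of the members' intervals ran from -0.19 to 0.26 on the log2 scale.

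**Figure D1:**
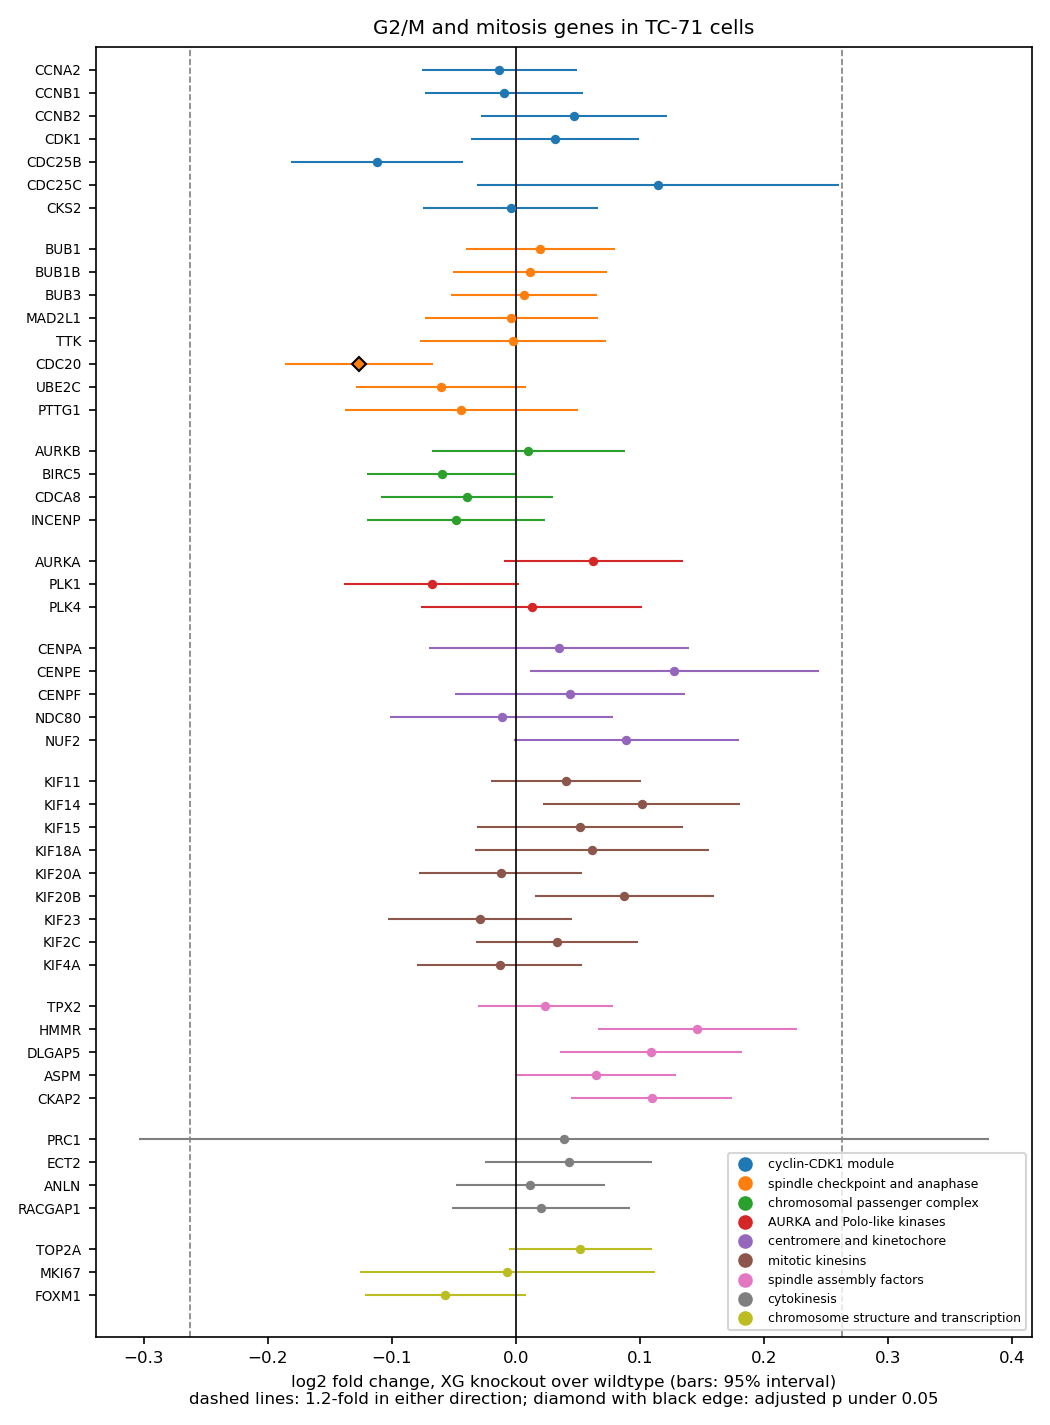
Log2 fold changes of the 48 tested members (x axis, knockout over wildtype) by role, with bars for the 95% interval of each and dashed lines at 1.2-fold. CDC20, marked by a diamond, is the member past the threshold, and PRC1, with a log2 interval from -0.30 to 0.38, is the member whose interval crosses the dashed lines.

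Of the cyclin and CDK1 genes none of 7 passed the test (edgeR; 1 had an unadjusted p under 0.05, and DESeq2 and limma voom also called 0), with 3 positive and 4 negative log2 fold changes and a median of -0.0043. CCNB1, cyclin B1, was at 299, 284 and 292 CPM in wildtype replicates 1 to 3 and at 298, 290 and 281 CPM in knockout replicates 1 to 3. The groups overlapped, and its log2 fold change was -0.0096 with a 95% interval from -0.073 to 0.054. CDK1, the kinase itself, was at 192, 190 and 192 CPM in wildtype and 203, 196 and 188 CPM in knockout libraries, with knockout libraries on both sides of wildtype (interval -0.036 to 0.099). CCNA2, cyclin A2, stood at 99.1% and CCNB2, cyclin B2, at 103.4% of wildtype. CKS2, a small subunit that binds CDK1, was at 99.8% of wildtype.

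Neither of the CDC25 phosphatases among the members passed the test, and their estimates differed in sign. CDC25B, which starts the activation of CDK1 at the centrosome, was at 169, 174 and 171 CPM in wildtype and 159, 152 and 165 CPM in knockout libraries. The highest knockout library was below the lowest wildtype library (log2 fold change -0.11, SE 0.0331, with adjusted p = 0.0984 in edgeR). CDC25C, the least abundant member of the group, was at 16.6, 16.2 and 14.9 CPM and at 16.0, 18.03 and 17.6 CPM. Its groups overlapped, and its log2 fold change of 0.11 had a wide interval, from -0.031 to 0.26. The difference between the phosphatases was not tested.

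Among 8 spindle checkpoint and anaphase genes, CDC20 fell and 7 did not pass. CDC20 (ENSG00000117399.14, chromosome 1, 43358981 to 43363203, plus strand, GRCh38) activates the APC/C and is the target that the checkpoint holds. It was at 333, 333 and 336 CPM in wildtype replicates 1 to 3 and at 306, 296 and 315 CPM in knockout replicates 1 to 3. The wildtype libraries lay close together, and every knockout library was lower, knockout replicate 3 the least so. The mean went from 334 ± 1.74 to 306 ± 9.33 CPM (SD, n = 3), or 91.6% of wildtype (log2 fold change -0.13 with SE 0.0284, adjusted p = 0.0344 by edgeR, lower in 3 of 3 libraries). The authors' deposited table gives CDC20 a log2 fold change of -0.13 and an adjusted p of 0.00776, and in that table it is also the only member with an adjusted p under 0.05.

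The call for CDC20 did not survive the removal of most single libraries or an adjustment for GC content. Without wildtype replicate 1, 2 or 3 its edgeR adjusted p was 0.169, 0.181 or 0.190, and without knockout replicate 1 or 2 it was 0.0634 or 0.15, while without knockout replicate 3 it was 7.79e-05. The log2 fold change stayed between -0.15 and -0.11 in these fits. Calls over all genes also fell, from 196 with all libraries to 24, 26 and 18 without wildtype replicate 1, 2 or 3. Without knockout replicate 1 or 2 they were 67 and 41, and without knockout replicate 3 they were 1851. For knockout replicate 3 alone against wildtype the log2 fold change of CDC20 was -0.083. With a correction that removes each library's trend on transcript GC content, the log2 fold change was -0.067 (SE 0.0233, with adjusted p = 0.138 in edgeR). The transcript of CDC20 has a GC content of 57.9%, against a median of 42.4% for the tested members.

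In the deposited counts, transcripts of the checkpoint proteins that CDC20 binds were level between the groups. MAD2L1, which captures CDC20 at unattached kinetochores, was at 99.8% of wildtype, BUB1B (BUBR1) at 100.8%, BUB3 at 100.5% and BUB1 at 101.4%. TTK, the kinase that recruits them, was at 99.9%. UBE2C, an ubiquitin-conjugating enzyme of the APC/C, was at 127, 125 and 123 CPM in wildtype and 120, 118 and 123 CPM in knockout libraries, and PTTG1, the securin whose destruction frees separase, was at 97.2% of wildtype. For UBE2C the groups did not overlap, though the nearest libraries almost touched, and neither gene passed the test (edgeR adjusted p = 0.367 and 0.68). With the GC trend removed all 8 genes of the group, CDC20 among them, had negative log2 fold changes, with a median of -0.040. None of the 8 was called in that fit, and 26 of 48 members were negative in it.

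None of the 4 genes of the chromosomal passenger complex, which corrects faulty attachments, passed (edgeR; 0 also at an unadjusted p under 0.05 and by DESeq2 and limma voom). BIRC5, survivin, the most abundant of them, was at 407, 422 and 405 CPM in wildtype and 404, 382 and 398 CPM in knockout libraries. Its groups were separated by less than 1 CPM (log2 fold change -0.06, SE 0.0287, with adjusted p = 0.301 in edgeR). AURKB, the kinase of the complex, stood at 100.6% of wildtype, CDCA8 (borealin) at 97.3% and INCENP, its scaffold, at 96.7%. Of the other mitotic kinases, PLK1 was at 262, 271 and 264 CPM in wildtype and 254, 240 and 266 CPM in knockout libraries, with knockout replicate 3 inside the wildtype range (log2 fold change -0.068, SE 0.0337, adjusted p = 0.319). AURKA, which acts at spindle poles, stood at 104.5% and PLK4, which controls centriole duplication, at 100.8% of wildtype.

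In the centromere and kinetochore group none of 5 genes passed (edgeR, DESeq2 and limma voom; 1 at an unadjusted p under 0.05). CENPE, a kinesin that carries chromosomes to the spindle equator, was at 156, 137 and 161 CPM in wildtype and at 155, 182 and 159 CPM in knockout libraries. Wildtype replicate 2 was low and knockout replicate 2 high, the other 4 libraries overlapped, and the SE of its log2 fold change of 0.13 was 0.0553, above the median of the members. CENPF, a large kinetochore protein, was at 281, 262 and 288 CPM and at 267, 310 and 279 CPM, in a similar order of libraries. NUF2 and NDC80, which form the microtubule-binding complex together, stood at 106.3% and 99.2% of wildtype, and CENPA, the centromeric histone, at 102.4%.

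Of the 9 mitotic kinesins none passed (edgeR, DESeq2 and limma voom; 2 at an unadjusted p under 0.05, both higher), and 6 had positive log2 fold changes, with a median of 0.041. KIF14, a cytokinesis motor, was at 86.3, 84.9 and 90.2 CPM in wildtype and 92.2, 96.8 and 91.1 CPM in knockout libraries, without overlap (log2 fold change 0.10, SE 0.0378, with adjusted p = 0.181 in edgeR). KIF20B was also higher in all 3 knockout libraries, at 116, 120 and 117 CPM against 110, 108 and 114 CPM (adjusted p = 0.202). KIF11, the motor that pushes spindle poles apart, was at 243, 234 and 242 CPM and at 250, 247 and 242 CPM. The remaining kinesins stood between 98.0% (KIF23) and 104.4% (KIF18A) of wildtype.

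None of the 5 spindle assembly factors tested passed (edgeR, DESeq2 and limma voom; 4 at an unadjusted p under 0.05). All 5 log2 fold changes were positive, with a median of 0.11 (0.065 after GC correction). In 4 the groups did not overlap, with knockout higher, where 10.7% of all genes did so. An unadjusted p under 0.05 in edgeR was found for 16.8% of all genes. The 5 factors had a median transcript GC content of 37.1%, against 42.4% for the tested members. The part of GC content in their direction was not tested. HMMR (ENSG00000072571.20, chromosome 5, 163460203 to 163491941, plus strand, GRCh38), a microtubule-binding hyaluronan receptor of spindle poles, had the largest log2 fold change of all members. It was at 68.4, 67.4 and 69.0 CPM in wildtype and at 78.2, 75.0 and 73.6 CPM in knockout libraries. Every knockout library was higher, and the mean stood at 110.7% of wildtype (log2 fold change 0.15, SE 0.0383, with adjusted p = 0.0636 in edgeR).

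CKAP2, which stabilises spindle microtubules, was at 180, 173 and 175 CPM in wildtype and 193, 192 and 184 CPM in knockout libraries (log2 fold change 0.11, SE 0.0309, with adjusted p = 0.0857 in edgeR). DLGAP5, which bundles spindle fibres near chromosomes, was at 129, 120 and 126 CPM and at 137, 136 and 131 CPM (0.11, SE 0.0351, adjusted p = 0.123). ASPM, a spindle pole protein, was at 174, 170 and 177 CPM and at 179, 186 and 180 CPM. In these 3 genes all knockout libraries lay above all wildtype libraries, and knockout replicate 3 was the lowest of the knockout libraries in CKAP2 and DLGAP5. TPX2, the activator of Aurora A on the spindle and the most abundant of the group, was at 389, 394 and 385 CPM and at 400, 391 and 396 CPM, with overlap. After GC correction the log2 fold changes of HMMR, CKAP2 and DLGAP5 were 0.10, 0.065 and 0.068 (edgeR adjusted p = 0.109, 0.185 and 0.231).

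**Figure D2:**
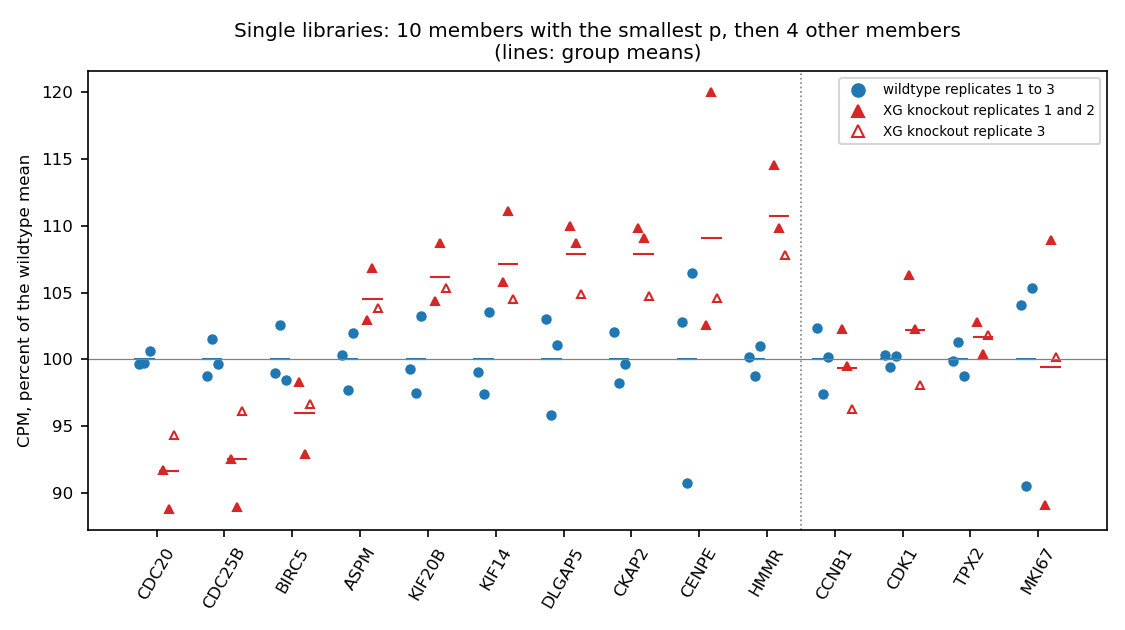
CPM of single libraries as a percentage of the gene's wildtype mean (y axis) for the 10 members with the smallest p and 4 other members (x axis). Points are libraries and short lines group means. CDC20 and CDC25B lie below and HMMR, CKAP2 and DLGAP5 above wildtype in all 3 knockout libraries, while the libraries of CCNB1, CDK1, TPX2 and MKI67 overlap.

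The 4 cytokinesis genes had log2 fold changes between 0.012 and 0.043, and none passed (edgeR; 0 at an unadjusted p under 0.05, and 0 by DESeq2 and limma voom). PRC1 is among them, at 0.039 with a 95% interval from -0.30 to 0.38. Its counts cannot be taken as its expression, as described below. ECT2, the exchange factor that activates RhoA at the division plane, stood at 103.1% of wildtype, RACGAP1, its partner, at 101.5%, and ANLN, which ties the contractile ring to the membrane, at 100.8%. TOP2A, the topoisomerase that disentangles sister chromatids, was at 395, 384 and 396 CPM in wildtype and 412, 410 and 395 CPM in knockout libraries. FOXM1, the forkhead factor that activates many of the members, was at 160, 161 and 158 CPM and at 154, 150 and 157 CPM. Its groups did not overlap, with the means at 160 and 154 CPM (log2 fold change -0.057, SE 0.0309, with adjusted p = 0.372 in edgeR).

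MKI67, the Ki-67 proliferation marker that coats mitotic chromosomes, was the most abundant member in CPM and had the largest SD in CPM in both groups. It was at 464, 404 and 470 CPM in wildtype and at 397, 486 and 447 CPM in knockout libraries. The lowest and the highest of the 6 values were both knockout libraries, and the group means were 446 ± 36.6 and 443 ± 44.3 CPM (SD, n = 3; log2 fold change -0.0069, SE 0.0567). MKI67, CENPF, CENPE and ASPM are the 4 tested members with more than 9000 bases of exon in the count table. Their median difference from the gene's mean over libraries was -0.12 (log2) in wildtype replicate 2, -0.048 in knockout replicate 1 and 0.14 in knockout replicate 2, and between -0.0099 and 0.034 in the other 3 libraries. Over the 2359 tested genes of that length the medians lay between -0.011 and 0.024, none of that size. The part of transcript length in these values was not tested.

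Transcript GC content went with the direction of the members' small differences. Across the 48 tested members, Pearson's r between transcript GC content and log2 fold change was -0.73 (Spearman's rho -0.71), and across 14359 genes with a GC value r was -0.25. These are correlations across genes measured in the same 6 libraries, and genes are not independent replicates. Of 15 members with a GC content under 40%, 14 had a positive log2 fold change, and of 6 members over 55%, 5 had a negative one. AURKB, at 55.6% GC and a log2 fold change of 0.01, was the exception among the GC-rich members, and MAD2L1, at 39.4% GC, that among the GC-poor ones. For the 6 GC-rich members the median difference from the gene's mean was 0.023, 0.049 and 0.041 (log2) in the wildtype libraries and -0.036, -0.089 and 0.0087 in knockout replicates 1, 2 and 3. For the 15 GC-poor members it was -0.019, -0.065 and -0.012 in wildtype and 0.044, 0.064 and 0.0042 in knockout libraries. In both classes knockout replicate 3 lay between the wildtype libraries and the other knockout libraries.

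**Figure D3:**
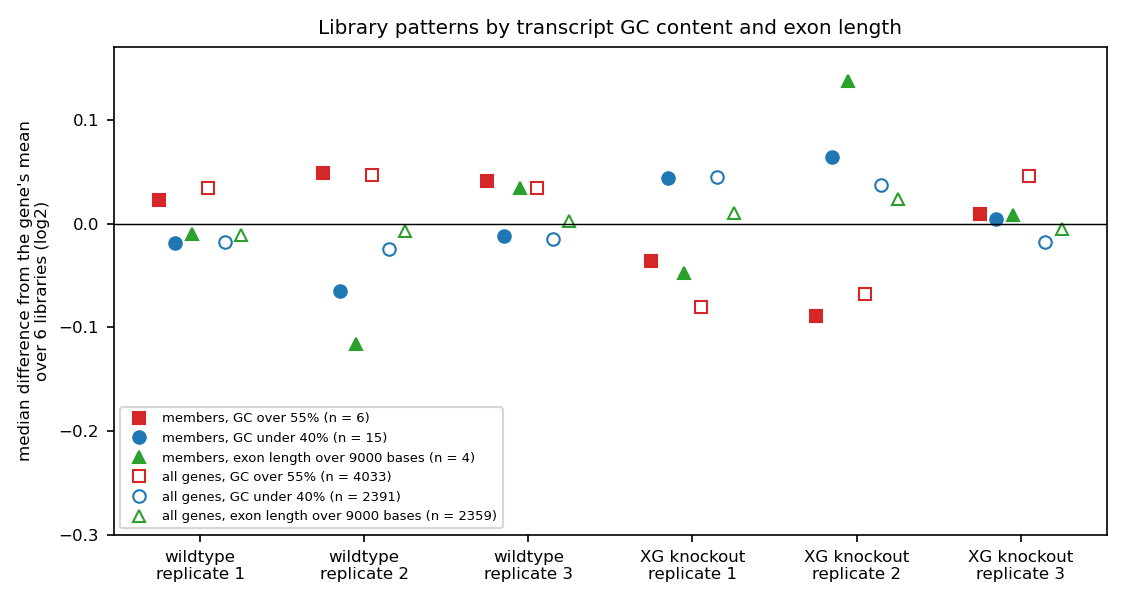
Median difference from each gene's mean over 6 libraries (y axis, log2) in every library (x axis), for members (filled) and all tested genes (open) by transcript GC content or exon length. GC-rich members lie above and GC-poor members below 0 in wildtype libraries, the order is turned in knockout replicates 1 and 2, and knockout replicate 3 is near 0 for both.

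With no filter on low counts 4 of the members were called (CDC20, CENPE, HMMR and CKAP2), where 2.37% of all genes with a count were. With the trend on GC content removed from each library, no member was called (edgeR; 4 members at an unadjusted p under 0.05), where 2.35% of all genes were. The members' median log2 fold change became -0.0075, with 26 of 48 negative. Their r with GC content became -0.27, where r over all genes with a GC value became 0.016. Without knockout replicate 3, and with no GC correction, 9 of 48 members passed (18.8%), 6 higher (HMMR, CKAP2, DLGAP5, KIF14, CENPE and NUF2) and 3 lower (CDC20, CDC25B and PLK1), where 12.7% of all genes passed, 3.58% higher and 9.1% lower. With that library left out and the GC trend removed, 0 members passed by edgeR (7 at an unadjusted p under 0.05), where 2.64% of all genes did. In the fit of knockout replicate 3 alone against wildtype, where a single knockout library is taken to have the spread of the wildtype libraries, r between GC content and log2 fold change was -0.35 over the members, against -0.76 without that library. Over all genes with a GC value these correlations were 0.03 and -0.36. The median log2 fold change of the members in the fit of knockout replicate 3 alone was 0.0019.

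**Figure D4:**
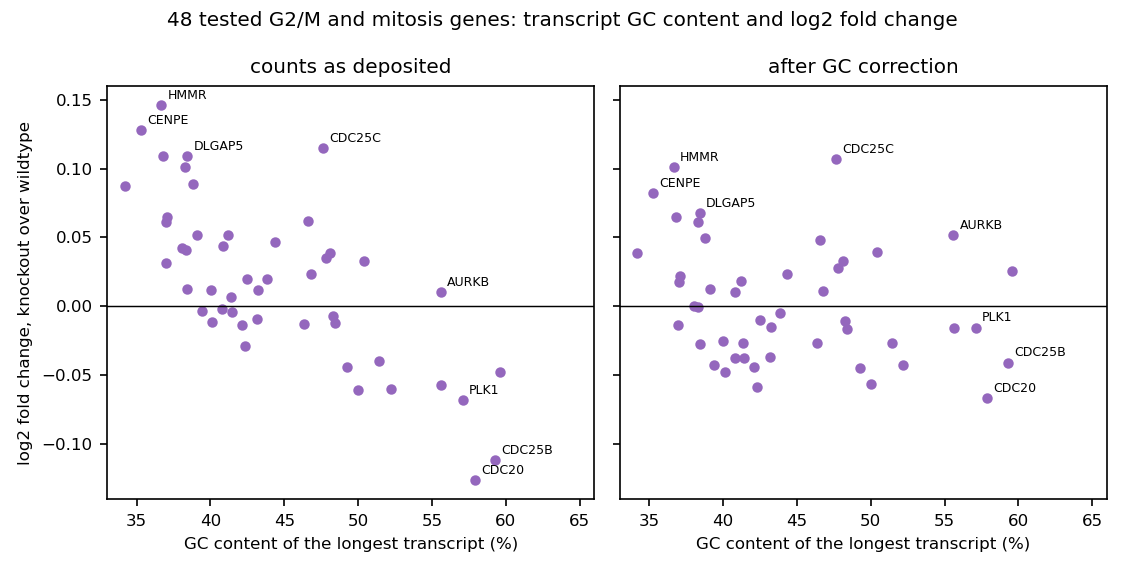
Log2 fold change (y axis) of the 48 tested members against the GC content of their longest transcript (x axis, percent), from the deposited counts (left) and after GC correction (right). The points fall from HMMR and CENPE at low GC to CDC20 and CDC25B at high GC on the left (r = -0.73), and the slope is smaller on the right (r = -0.27).

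Levels per length spread widely among the members. By wildtype CPM per kilobase of exon, CKS2 (207), CDC20 (166), CCNB1 (120), TPX2 (108), BIRC5 (108) and UBE2C (97.3) stood highest. TPX2 and BIRC5 did not differ in this order beyond the spread of their libraries. At the low end were CDC25C, at 4.77 CPM per kilobase, PRC1 at 0.55 and NUSAP1 at 0.0771, while the other members were at 10.2 or more. Exon length in the count table is that of all annotated exons together, so genes with long alternative exons are placed too low.

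PRC1 and NUSAP1 were also the members whose exons are mostly shared with another gene on the same strand, and their counts cannot be taken as their expression. NUSAP1 (ENSG00000137804.14, chromosome 15, 41320794 to 41381050, plus strand, GRCh38), which bundles spindle microtubules, had 13, 6 and 3 counts in wildtype and 4, 8 and 10 counts in knockout libraries. Of its 3608 exon bases, 81.4% are also exon bases of AC087721.2, a gene that had 0 counts in every library. PRC1 (ENSG00000198901.14, chromosome 15, 90966040 to 90995629, minus strand), which cross-links the central spindle, had 84, 91 and 58 counts in wildtype and 72, 120 and 77 counts in knockout libraries, and shares 57.6% of its 5523 exon bases with AC068831.8, which had 90 to 135 counts. Per the file headers, the counting had no option set to keep fragments that overlap more than 1 gene, so fragments in the shared exons were assigned to neither. BUB1B and CENPA shared 10.2% and 7.08% of their exon bases with other genes, and the remaining 45 members shared none.

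**Figure D5:**
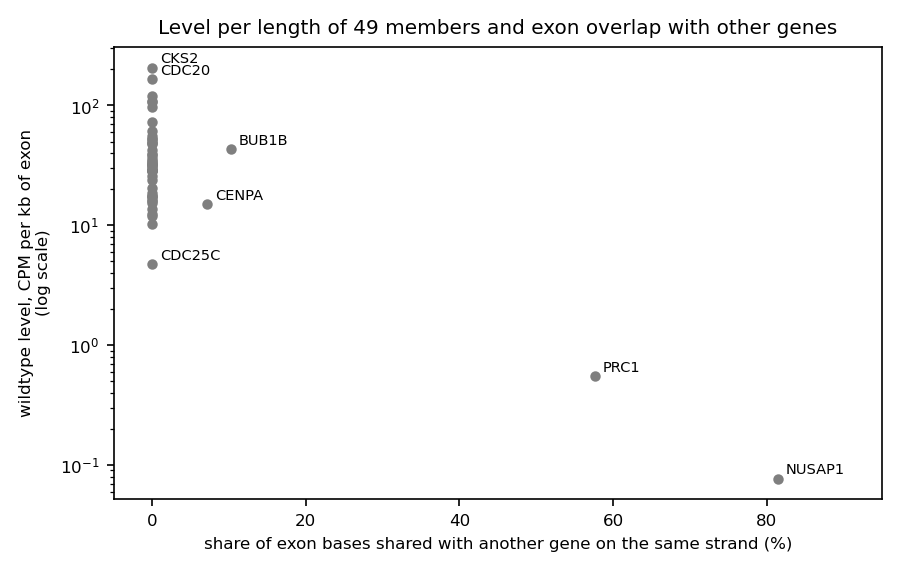
Wildtype level in CPM per kilobase of exon (y axis, log scale) against the share of exon bases that another gene on the same strand also covers (x axis, percent), for all 49 members. NUSAP1, at 81.4% overlap and 0.0771 CPM per kilobase, and PRC1, at 57.6% and 0.55, lie below all other members.

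Genes that act around the members were taken from 7 further lists of 113 genes, of which 111 were tested. Of these 1 rose and 1 fell (edgeR), which is near the 1.36% of all genes called, and the median log2 fold change was 0.0031. An unadjusted edgeR p under 0.05 was found for 22 of the 111, 7 higher and 15 lower, against 16.8% of all genes. Without knockout replicate 3, 4 of the genes were called higher and 14 lower, where 3.58% of all genes were called higher and 9.1% lower. With the GC trend removed 4 of the genes were called, CDKN1A higher and UBE2S, TFDP1 and SMC2 lower, where 2.35% of all genes were called. SMC2, a condensin subunit named after its values were seen, had a log2 fold change of -0.053 from the deposited counts (edgeR adjusted p = 0.459) and -0.095 with the GC trend removed (adjusted p = 0.0442). CDKN1A, the p21 inhibitor of cyclin-dependent kinases, was the gene called higher among 15 tested in the control of CDK1 entry. Of those 15, 3 had an unadjusted edgeR p under 0.05, 2 higher and 1 lower. CDKN1A was at 19.3, 19.8 and 20.9 CPM in wildtype and 25.8, 24.7 and 25.2 CPM in knockout libraries, without overlap. The log2 fold change of CDKN1A was 0.34 with an SE of 0.0574 (edgeR adjusted p = 0.00772, higher in 3 of 3 libraries), and 0.40 after GC correction (adjusted p = 3.01e-05). It missed the threshold without wildtype replicate 1 (adjusted p = 0.0979) or 2 (0.0601), and over all alternatives the adjusted p ranged from 8.02e-06 to 0.0979.

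UBE2S, the enzyme that extends ubiquitin chains on APC/C substrates, was the gene called lower among 17 APC/C subunits and regulators. In that list 7 genes had an unadjusted edgeR p under 0.05, 2 higher and 5 lower, where 16.8% of all genes did. With the GC trend removed 5 of the 17 did, and 13 had negative log2 fold changes. UBE2S was at 218, 221 and 207 CPM in wildtype and 179, 175 and 208 CPM in knockout libraries. Knockout replicate 3 thus lay inside the wildtype range and the groups overlapped. The log2 fold change of UBE2S was -0.20 (SE 0.048, with adjusted p = 0.0447 in edgeR), became -0.28 without knockout replicate 3, and was -0.051 in that library alone (adjusted p = 0.62). UBE2S was not called in DESeq2 (adjusted p = 0.239), without wildtype replicate 1, 2 or 3 (by edgeR, adjusted p = 0.212, 0.242 and 0.138) and without knockout replicate 1 or 2 (0.146 and 0.209), whereas with the GC trend removed it was (log2 fold change -0.16, edgeR adjusted p = 0.00318).

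The regulators of mitotic transcription (MuvB subunits, B-MYB, E2F and pocket proteins and NF-Y) had no gene past the test among 14 (edgeR, DESeq2 and limma voom; 3 at an unadjusted p under 0.05, all lower). TFDP1, the dimer partner of E2F, was nearest, at 269, 276 and 271 CPM in wildtype and 259, 246 and 254 CPM in knockout libraries, without overlap (log2 fold change -0.10, SE 0.029, with adjusted p = 0.0818 in edgeR). With the GC trend removed TFDP1 was called (log2 fold change -0.12, edgeR adjusted p = 0.00446). No gene passed in edgeR among 7 further checkpoint genes, 27 kinetochore genes, 11 condensin and chromatid separation genes and 20 further spindle and cytokinesis genes, with 0, 3, 2 and 4 at an unadjusted p under 0.05. CENPM, of the inner kinetochore, was called by DESeq2 and limma voom and not by edgeR, with means of 38.0 and 32.1 CPM (log2 fold change -0.24, SE 0.06, with adjusted p = 0.0526 in edgeR). Smallest in p elsewhere were SPDL1, a kinetochore adaptor of dynein, at 0.077, NCAPH2, a condensin II subunit, at -0.15, and KIF22, a chromosome-arm kinesin, at -0.089 on the log2 scale, with edgeR adjusted p of 0.368, 0.0993 and 0.181.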

How the data were processed

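Per the submitters' processing notes, reads were demultiplexed with bcl2fastq and processed with STAR 2.7.6a on GRCh38. The authors counted fragments per gene (whole-number counts, deposited) with featureCounts from Subread 2.0.1, paired-end and reverse-stranded, over GENCODE 33 exons, per the file headers. The authors' deposited table holds log2 fold changes with standard errors, a mean signal over libraries, a test statistic (score), p-values and adjusted p-values, from DESeq2 1.38.3 under R 4.2.2 per those notes. Its direction was taken from the counts (same sign in 99.2% of tested genes). Columns were matched to samples by name.

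Genes passing edgeR's filterByExpr (minimum count 10, total 15) were normalised by TMM (trimmed mean of M values) in edgeR 4.0.16, R 4.3.3, and tested two-sided by glmQLFit and glmQLFTest without covariates, adjusted over 14425 genes. CPM are counts over TMM-scaled library sizes. Differences from a gene's mean used log2(CPM + 0.5). Alternatives used limma 3.58.1 (voom) and DESeq2 1.42.0, other scalings and filters, a replicate block, single libraries left out and a lowess correction (span 0.5) on the GC content of the longest GENCODE 29 transcript (99.5% of genes). Exon overlap used the exons of the count table.

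The members, gene lists and tests were chosen with earlier results of these data known. Named are members past the threshold, the 10 smallest p, the most abundant and most changed member of each role group, and, per other list, called genes or the smallest p. Further members are given by percent of wildtype, and those described more fully outside the rule were chosen after their values were seen. On simulated data for this comparison (14425 genes, 50 changed per size), 32% were recovered at 1.1-fold, 74% at 1.2-fold and 94% at 1.5-fold, with 12 of 162 calls false. The changed genes were drawn from those with a mean count of at least 50. The simulated libraries held no trend on GC content, so recovery in the real libraries may differ.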

Additional observations from a re-analysis of the deposited data

How the results depend on the processing

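The call of CDC20 as 1 of 48 members, out of 196 genes called, held under relative log expression and upper quartile scaling, DESeq2, limma voom and a stricter filter (100 counts in 3 libraries). With no filter 4 members were called (CDC20, CENPE, HMMR and CKAP2) of 647 genes. With single libraries left out, 0 to 9 members and 18 to 1851 genes were called, and the median log2 fold change of the members ran from 0.00802 to 0.0294. With the GC correction 0 members and 339 genes were called, with a median of -0.0075. With the replicate block 0 members and 37 genes were called. The replicate numbers did not pair the samples (correlations of same-numbered deviations -0.046, -0.024 and -0.051, no library correlating best with its own number), and with the replicate block and GC correction together 0 members were called, with a median of -0.0068. Alternatives chosen after seeing the data called 0 members each: GC correction without knockout replicate 3 (386 genes, median -0.0058), knockout replicate 3 alone (125 genes, median 0.0019), the same with GC correction (128 genes, median -3.37e-05), and GC and length correction (377 genes, median -0.00799). For counts that changed, the cause was not tested. Of 513 named gene values under these alternatives, 443 kept their direction and side of the threshold, 24 lost and 23 gained a call, and 23 changed sign without a call.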
